A study of Rattus norvegicus with 8 samples.

Results

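The genes examined here were those of the vascular endothelial growth factor (VEGF) and angiopoietin system that bear 1 of 10 gene names on the array. They were 6 secreted factors (Vegfa, Vegfb, Vegfc, Pgf, Angpt1 and Angpt2) and 4 receptors (Kdr, Flt1, Tek and Nrp1). They were chosen by name, and together they are 10 of the 34912 gene names and 19 of the 45598 rat probes of the array. The data are 8 arrays of a single dye, 4 of non-irradiated cells and 4 of cells irradiated with the Er:YAG laser, an infrared laser used in periodontal therapy. The cells were primary osteoblast-like cells released by enzymatic digestion from the calvariae, the skull vault bones, of Wistar rats 3 to 5 days old. The irradiated cells received 3.3 J/cm2 at confluency with the medium removed, the non-irradiated cells received none, and RNA of both was taken at 6 h. In the study's expression experiments both groups were then kept in osteoinduction medium with ascorbic acid, β-glycerophosphate and dexamethasone. As a model the cells are limited in that several digestion fractions were pooled and not every cell is an osteoblast. The arrays of each group carry replicate numbers 1 to 4, and an irradiated and a non-irradiated array of the same number are called a pair here. The labels do not say whether different numbers are different animals. The names of the scanner files alone give each number its own animal number, shared by both arrays of a pair. With replicate number in the model, the p-values for irradiation are set against the spread of the differences within these 4 pairs. For each probe, limma draws this spread toward that of all probes tested.

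VEGF proteins are secreted ligands of tyrosine kinase receptors that stand mainly on endothelial cells and drive the growth and permeability of blood vessels. Kdr is the main signaling receptor of Vegfa, Flt1 binds Vegfa, Vegfb and Pgf and also exists as a soluble form that captures them, and Nrp1 is a co-receptor. Angpt1 activates the endothelial receptor Tek and stabilizes vessels, whereas Angpt2 can block it. In bone, Vegfa made by osteoblasts and chondrocytes couples vessel ingrowth to bone formation.

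Of the 19 probes, 16 were well above background, in more than 50% of their spots, on each of the 4 arrays of a group and were tested. They covered 9 members, 5 factors and 4 receptors. Angpt2 was not well above background at its only probe on any of the 8 arrays. One further probe of Vegfa and one of Flt1 also did not pass, and no spot of a member was saturated or marked as outlying.

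Probes of Vegfa, Flt1 and Nrp1 are shown where probes of 1 gene differed in detection or in their irradiation result. These are not the brightest probes of the 3 genes. Their 60 bases are given as in the array's design, in lower case because no base is singled out. The first Vegfa probe (chr9:10528551-10528610 of the rat build rn4) was well above background on all 8 arrays, whereas the second one (chr9:10531934-10531993) was so on 0 non-irradiated and 2 irradiated arrays. The first Flt1 probe (chr12:7957094-7957153) is listed for both transcript variants of the gene and was well above background on all 8 arrays. The second one (chr12:8035639-8035698) is listed for 1 variant alone and was so on 1 non-irradiated and 2 irradiated arrays. That variant is called long here because this probe lies farthest along the chromosome, and the other is called short. The labels give neither name, and the lengths of the transcripts were not compared. The 2 names do not rank the transcripts by length. A probe of the short variant lies at base 5682 of its transcript, and that of the long variant at base 4405. The Nrp1 probe (chr19:58482301-58482792, a span wider than the probe) had the lowest unadjusted p-value of all member probes for irradiation. Exon and UTR annotation of rn4 was not used here.
Vegfa, A_64_P099891: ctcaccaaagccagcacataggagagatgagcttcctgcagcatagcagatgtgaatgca
Vegfa, A_44_P1164111: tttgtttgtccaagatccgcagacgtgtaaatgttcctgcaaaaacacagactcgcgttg
Flt1, A_64_P201730: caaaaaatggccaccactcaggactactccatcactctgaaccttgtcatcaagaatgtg
Flt1, A_43_P12015: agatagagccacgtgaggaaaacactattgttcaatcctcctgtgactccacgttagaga
Nrp1, A_42_P768978: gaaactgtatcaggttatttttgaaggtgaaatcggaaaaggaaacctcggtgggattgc

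Irradiation moved none of the VEGF and angiopoietin genes past the test. With limma, 0 of the 16 member probes had an adjusted p-value below 0.1, against 0 of 26400 probes or 0% on the whole array, and each member's adjusted p-value was 1.00. At an unadjusted p-value below 0.05 there was 1 member probe of 16, the lower-signal Nrp1 probe, against 670 of 26400 probes (2.54%), of which 1.42% of all probes were higher and 1.12% lower in irradiated cells. The differences ran from -0.32 to 0.31 on the log2 scale at 15 of the 16 probes. The remaining probe, of Flt1, gave 0.41, and it passed the filter only through the irradiated group, as it was well above background on 2 non-irradiated and 4 irradiated arrays. Standard errors ran from 0.11 to 0.35. Counting only the brightest probe of each gene, the 95% intervals lay between 0.64-fold (the lower end of Nrp1) and 1.75-fold (the upper end of Kdr). Each gene has its own interval within this span, such as 0.83-fold to 1.27-fold for Vegfa. Changes within a gene's own interval are not excluded by the 4 pairs. For a single probe an exact sign-flip test over 4 pairs cannot give a two-sided p-value below 0.125. In bulk RNA such as this, fewer cells of a type and less RNA per cell cannot be told apart.

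Among the secreted factors, Vegfa, the central ligand of the family, gave log2 signals of 12.12, 10.89, 10.89 and 10.62 on non-irradiated arrays 1 to 4 at its probe with the highest signal (A_64_P099886, chr9:10535933-10535992). The irradiated arrays gave 12.19, 10.80, 10.76 and 10.91 in the same order. Replicate 1 stood more than 1 log2 unit above the other replicates in both groups, and the groups overlapped. The means were 11.13 ± 0.67 in non-irradiated and 11.17 ± 0.69 in irradiated cells (SD, n = 4), with a difference of 0.04 (SE 0.12, limma) and a 95% interval from -0.27 to 0.34. The other tested probe of Vegfa gave a difference of 0.00 (SE 0.11), with replicate 1 again highest in both groups at 9.76 and 9.90.

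Pgf, a ligand of Flt1, gave 13.19, 11.37, 10.86 and 12.30 in non-irradiated and 13.07, 11.38, 10.91 and 12.10 in irradiated cells (A_64_P120634, chr6:109215543-109215602). Each irradiated array lay close to its pair, and the difference was -0.06 (SE 0.11), with a 95% interval from -0.34 to 0.21. Vegfc, a ligand of lymphatic vessel growth, gave 11.95, 11.05, 10.74 and 10.97 in non-irradiated and 11.67, 11.54, 10.72 and 10.91 in irradiated cells (A_43_P14264, chr16:40624468-40624527). Pair 2 was higher and the other pairs were lower after irradiation, with a difference of 0.03 (SE 0.16) whose sign turned to -0.12 without replicate 2. Vegfb, another ligand of Flt1, gave 8.44, 8.62, 8.42 and 8.37 in non-irradiated and 8.39, 8.65, 8.37 and 7.85 in irradiated cells (A_44_P159040, chr1:209659244-209659672). Its values were the most even of the family apart from the last irradiated array, and the difference was -0.15 (SE 0.14).

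Angpt1, the activating ligand of Tek, gave 8.64, 9.77, 9.84 and 8.70 in non-irradiated and 8.19, 9.88, 9.87 and 8.42 in irradiated cells (A_42_P783735, chr7:78193836-78193895). Replicates 2 and 3 were high and replicates 1 and 4 low in both groups. The difference was -0.15 (SE 0.14), and the other 2 probes of the gene gave -0.11 and -0.05. Angpt2, the context-dependent antagonist of Angpt1, had normalized log2 signals of 1.58 to 2.79 in non-irradiated and 1.58 to 3.12 in irradiated cells, none of them well above background.

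Among the receptors, Kdr gave 9.43, 8.83, 7.58 and 7.06 in non-irradiated and 9.21, 9.79, 7.71 and 7.42 in irradiated cells (A_43_P11686, with no rn4 position on the array). It was higher after irradiation in 3 of 4 pairs, most in pair 2, and replicates 1 and 2 were above replicates 3 and 4 in both groups. The difference was 0.31 (SE 0.20, limma unadjusted p-value 0.182), with a 95% interval from -0.19 to 0.81. It was 0.49 without replicate 1 and 0.089 without replicate 2. Tek gave 8.20, 5.91, 5.84 and 6.55 in non-irradiated and 7.85, 6.29, 5.68 and 6.01 in irradiated cells (A_44_P1082389, chr5:115196108-115196167). Replicate 1 was far above the others in both groups, and the difference was -0.17 (SE 0.17). It was -0.35 without replicate 2, at an unadjusted p-value of 0.035 and an adjusted one of 0.868 (limma), and -0.050 without replicate 4.

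Flt1 was read by 4 probes. The one with the highest signal (A_44_P151138, chr12:7958826-7958885) is listed for the short variant alone, so the probe that stands for Flt1 is not listed for the long one. It gave 7.73, 5.82, 5.32 and 3.64 in non-irradiated and 8.07, 5.26, 4.75 and 4.26 in irradiated cells. Replicate 1 was highest and replicate 4 lowest in both groups, and non-irradiated replicate 4 was not well above background, so this probe also passed the filter only through the irradiated group. The difference of -0.04 (SE 0.24) had no settled sign, since it was 0.09 when arrays were scaled to their 75th percentile. The probe shared by both variants gave 0.02 (SE 0.14), with 6.33, 4.83, 4.76 and 4.30 in non-irradiated and 6.31, 5.21, 4.49 and 4.30 in irradiated cells, so replicate 1 was highest in both groups. A further tested probe of the short variant, A_44_P463262, gave 0.41 (SE 0.35), with 2 non-irradiated arrays not well above background, and its largest pair difference was that of replicate 3, with 2.95 in the non-irradiated and 4.64 in the irradiated array. The probe of the long variant stayed between 3.10 and 4.20 on the 8 arrays and did not pass the filter. Its irradiated array was higher in 4 of 4 pairs, by 0.16 to 0.80, although 5 of the 8 arrays were not well above background there. Without any filter its difference was 0.45 (SE 0.15), with an unadjusted p-value of 0.037 and an adjusted one of 1.00 (limma).

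Nrp1 gave 10.88, 9.88, 9.63 and 9.61 in non-irradiated and 10.39, 10.33, 9.46 and 9.11 in irradiated cells at its probe with the highest signal (A_44_P1087293, chr19:58487606-58487665), with a difference of -0.18 (SE 0.19). This was -0.39 without replicate 2, at an unadjusted p-value of 0.025 and an adjusted one of 0.868 (limma), and -0.075 and -0.070 without replicates 1 and 4. The other Nrp1 probe, A_42_P768978, gave 7.20, 6.41, 6.18 and 6.11 in non-irradiated and 6.72, 6.25, 5.95 and 5.72 in irradiated cells. Here each irradiated array lay below its pair, though the groups overlapped. The difference was -0.32 (SE 0.12), with a 95% interval from -0.60 to -0.03, an unadjusted p-value of 0.035 and an adjusted one of 1.00 (limma). The exact sign-flip p-value of a value lower in 4 of 4 pairs was 0.125. The 2 Nrp1 probes disagreed on pair 2, where the first was higher after irradiation.

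**Figure D1:**
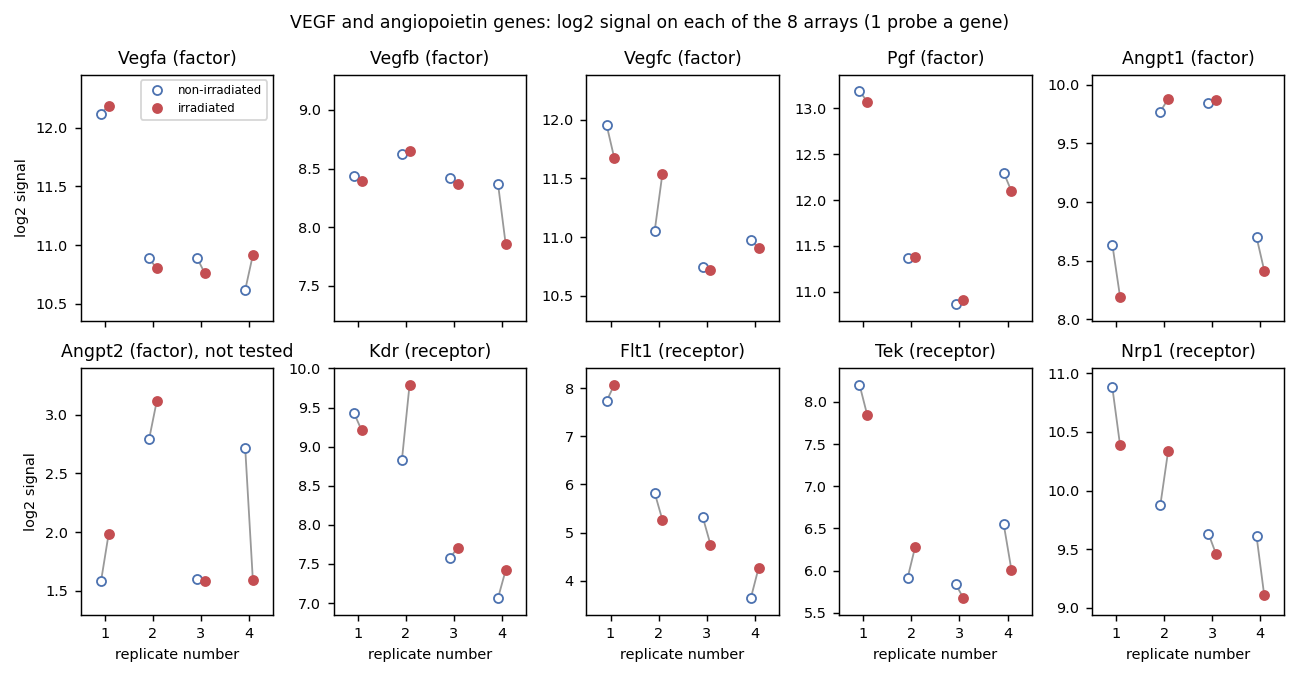
Log2 signal (y axis, quantile normalized) of the 10 genes at 1 probe each against replicate number (x axis), with open circles for non-irradiated and filled circles for irradiated arrays and a grey line joining each pair; each panel has its own y range. Vegfa, Flt1 and Tek are highest in replicate 1 in both groups, Angpt1 is high in replicates 2 and 3, and Angpt2 was not well above background on any array.

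Secreted factors and receptors were also set side by side within each pair, as a description. The median difference over the 5 factors was -0.11, 0.02, -0.02 and -0.20 in pairs 1 to 4, and over the 4 receptors it was -0.29, 0.41, -0.17 and -0.07. All probes tested had medians of -0.06, 0.09, -0.01 and 0.00 in the same pairs. Pair 2 was thus the only pair in which the median of either class was above 0, and there 4 of 5 factors and 3 of 4 receptors were higher after irradiation. The median of all probes was highest in this pair too, and the factor median of 0.02 lay below that median of 0.09. For these counts by pair the share of all probes that were higher is not given. Pair 2 was also the pair with the widest scatter. The differences of all probes tested had an SD of 0.563 there, against 0.404, 0.310 and 0.309 in pairs 1, 3 and 4. Its 2 arrays were the least alike, as their deviations from the group means correlated at 0.0542. In pair 1, by contrast, 1 of 5 factors and 1 of 4 receptors were higher. Over the 4 pairs the fitted medians were -0.06 for factors and -0.11 for receptors, and 6 of 9 members were below 0, with Flt1 among them, whose sign turned when arrays were scaled to the 75th percentile. With that scaling the receptor median was -0.017. By comparison, the median over all probes tested was -0.00341. The difference between the classes was not tested, because members are not replicates.

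**Figure D2:**
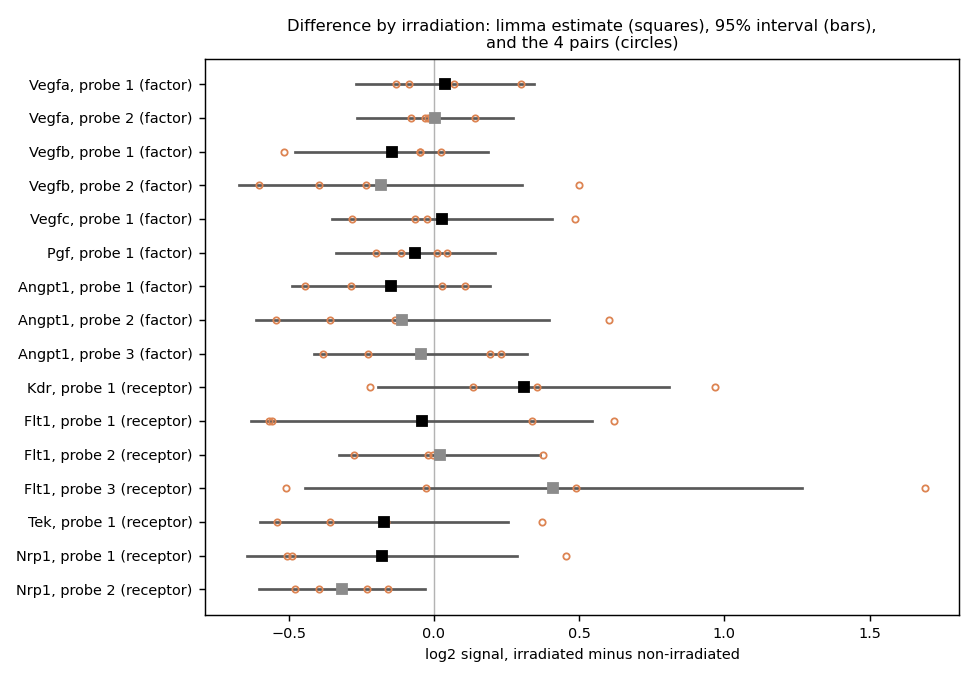
Difference in log2 signal, irradiated minus non-irradiated (x axis), of the 16 tested probes (y axis), with squares for the limma estimate (black for the probe with the highest signal of each gene), bars for its 95% interval and circles for the 4 pairs. The estimates run from -0.32 to 0.31 apart from the third Flt1 probe, which was well above background on 2 of 4 non-irradiated arrays, and the lowest, the second Nrp1 probe, is the only one whose interval leaves out 0.

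The family varied much more between replicate numbers than with irradiation. Vegfa, Pgf, Flt1 and Tek were highest in replicate 1, Kdr was highest in replicates 1 and 2, and Angpt1 was highest in replicate 3 and lowest in replicate 1. These 6 of 9 members (3 of 5 factors and 3 of 4 receptors) differed between replicate numbers at an adjusted p-value below 0.1, in a limma moderated F test with irradiation in the model, and Vegfb, Vegfc and Nrp1 did not pass at these probes. Counting all probes, 11 of 16 passed, against 2422 of 26373 probes on the array (9.18%), and with 1 probe a gene 1863 of 18914 passed (9.85%). The range of the 4 replicate means had a median of 1.44 log2 units over the 9 members and 0.56 over all probes. Since a range over 4 means is wider than a difference of 2 means even with no effect, these ranges are to be read against those of other probes. The median absolute difference by irradiation was 0.146 over the members and 0.0809 over all probes.

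The brightest Flt1 probe, that of the short variant, had replicate means of 7.90, 5.54, 5.04 and 3.95 (limma F, adjusted p-value 0.017), and the last of these includes an array not well above background, so no fold is given. The Flt1 probe of both variants, detected on all 8 arrays, spanned 4.07-fold (adjusted p-value 0.022), and the third tested Flt1 probe did not pass (adjusted p-value 0.270). Tek spanned 4.81-fold (adjusted p-value 0.028), and replicates 2 to 4 lay near one another at 6.10, 5.76 and 6.28 against 8.02 in replicate 1. Kdr spanned 4.23-fold (adjusted p-value 0.034) with replicates 1 and 2 alike at 9.32 and 9.31. Among factors, Pgf spanned 4.74-fold (adjusted p-value 0.00955), and replicate 4, at 12.20, came next to replicate 1, at 13.13. Angpt1 ran the other way at 8.42, 9.82, 9.86 and 8.56, a 2.71-fold range (adjusted p-value 0.030). Vegfa spanned 2.62-fold (adjusted p-value 0.033), and its replicates 2 to 4 lay within 0.078 log2 units of one another, 1.34 below replicate 1 on average. Nrp1 (adjusted p-value 0.108) and Vegfc (0.108) were also highest in replicate 1, so that 7 of 9 members were, and the second Nrp1 probe passed at 0.065. The share of all genes highest in replicate 1 is not given here. In the lists of related genes described below, 7 of 9 other ligands and receptors and 6 of 8 inhibitors of angiogenesis were highest there too. So were 6 of 11 relay genes, 4 of 7 oxygen-sensing genes and 3 of 12 oxygen-responsive genes. Vegfb showed the narrowest range, 0.52 (adjusted p-value 0.332).

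**Figure D3:**
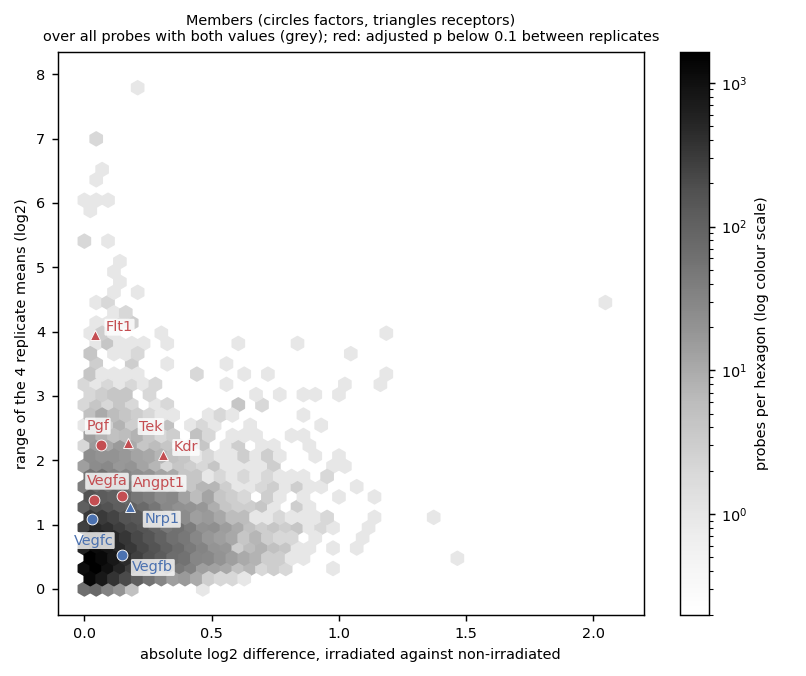
Range of the 4 replicate means in log2 units (y axis) against the absolute log2 difference between irradiated and non-irradiated cells (x axis), with circles for factors, triangles for receptors, red for an adjusted p-value below 0.1 between replicate numbers and blue otherwise; grey hexagons count the probes tested, on a log colour scale. Each of the 9 members has a larger range than difference, and the low end of Flt1 includes an array not well above background (its probe of both variants has a range of 2.02).

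These calls between replicates changed when a replicate was left out. Leaving one out also leaves fewer arrays to the F test, and the part of each in the changes was not tested. Without replicate 1, 1 of 9 members passed, Kdr, and 0.561% of all probes did. The adjusted p-value of Vegfa became 0.957 and that of Tek 0.459, while Pgf and Angpt1 lay just past the threshold at 0.109 (limma F). Without replicate 2, 8 members and 36.5% of all probes passed. Without replicate 3 there were 3 members (1.79% of all probes) and without replicate 4 also 3 (1.26%), with Pgf and Flt1 in both sets. Replicate number goes with the place on the slide, since the arrays of a pair lay side by side on 1 slide, so the culture and the place cannot be told apart. Within the slide, non-irradiated arrays lay in other columns than irradiated ones, so irradiation and column cannot be told apart either.

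Over the 8 arrays, Vegfa ran with Flt1 (r = 0.934) and Tek (r = 0.914), Vegfc with Nrp1 (r = 0.929), and Pgf with Tek (r = 0.916) and against Angpt1 (r = -0.897). These correlations are descriptions over 8 arrays that come as 4 pairs on 1 slide. Outside the family, the probes most like Vegfa over the 8 arrays were those of Man1c1 (r = 0.993), Prr14l (r = 0.993) and Vof16 (r = 0.990). For the receptors well above background on all 8 arrays at the probe used, they were an unnamed probe (A_44_P1151102, r = 0.989), Ackr4 (r = 0.986) and Zdhhc20 (r = 0.986) for Kdr. For Tek they were Uqcrq (r = 0.995), Pxdn (r = 0.994) and Cys1 (r = 0.993), and for Nrp1 they were S100pbp (r = 0.996), Zkscan3 (r = 0.993) and Ppfia1 (r = 0.993).

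Promoter sequence is shown for Vegfa, Pgf, Kdr and Flt1, which are those with a RefSeq entry among the 5 members that passed the F test with their highest mean in replicate 1 (for Kdr, level with replicate 2). Each is the 250 bases before the annotated start in build GRCr8, a later build than rn4, at chr9:22452604-22452853 (+) for Vegfa, chr6:110557748-110557997 (-) for Pgf, chr14:32571813-32572062 (+) for Kdr and chr12:12333180-12333429 (+) for Flt1. Capitals mark the GC box GGGCGG on either strand and the TATA box TATAAA on either strand.
Vegfa: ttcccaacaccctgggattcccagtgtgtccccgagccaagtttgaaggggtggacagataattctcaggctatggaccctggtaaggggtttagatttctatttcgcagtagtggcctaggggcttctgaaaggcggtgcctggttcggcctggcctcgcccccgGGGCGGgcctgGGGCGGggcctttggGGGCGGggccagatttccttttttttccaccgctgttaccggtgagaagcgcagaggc
Pgf: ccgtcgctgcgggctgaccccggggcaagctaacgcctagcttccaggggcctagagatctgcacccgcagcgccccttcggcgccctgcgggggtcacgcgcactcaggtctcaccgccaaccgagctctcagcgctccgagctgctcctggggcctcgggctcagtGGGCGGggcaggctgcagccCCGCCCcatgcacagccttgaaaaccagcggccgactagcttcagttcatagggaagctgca
Kdr: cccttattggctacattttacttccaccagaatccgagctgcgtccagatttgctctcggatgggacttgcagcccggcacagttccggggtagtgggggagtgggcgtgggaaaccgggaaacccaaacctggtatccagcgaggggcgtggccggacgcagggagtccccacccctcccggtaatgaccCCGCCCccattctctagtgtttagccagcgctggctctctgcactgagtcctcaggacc
Flt1: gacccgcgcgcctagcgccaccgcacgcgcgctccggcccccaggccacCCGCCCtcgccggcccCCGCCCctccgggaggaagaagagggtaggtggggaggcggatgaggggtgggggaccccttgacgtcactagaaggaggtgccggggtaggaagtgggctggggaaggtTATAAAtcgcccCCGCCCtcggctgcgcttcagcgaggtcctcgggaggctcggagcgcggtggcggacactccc
Of the members, 7 had such an entry (Vegfa had 2, of which the first is shown) and 3 did not. The GC box was found in 6 of these 8 entries, all but the second of Vegfa and that of Nrp1, against 30.5% of 33469 promoters. The 8 windows were 56% to 73.2% G and C, and they were not compared with promoters of like base content. TATAAA was found in 1 of 8, that of Flt1, against 12.9%, and the core of the hypoxia response element, ACGTG on either strand, in 0 of 8 against 16.6%. Sequence outside these 250 bases was not searched, so the counts do not say whether a motif lies farther away. The marked motifs did not overlap one another in the windows shown, and a match is a description of the letters only.

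Genes around the family did not pass the test for irradiation either. Of 47 tested genes in 5 lists, 0 had an adjusted p-value below 0.1 (limma) and 0 an unadjusted p-value below 0.05. Among 9 other ligands and receptors the 2 largest differences were those of the semaphorins Sema3c (-0.19, SE 0.14) and Sema3e (0.18, SE 0.14), with a list median of 0.05. Among 11 genes that relay receptor signals they were the adaptor Shb (-0.22, SE 0.11) and the integrin subunit Itgb3 (-0.22, SE 0.21; 0.025 without replicate 4), with a median of -0.03. Of 7 oxygen-sensing genes, Arnt, the partner of the hypoxia-inducible factors, gave -0.17 (SE 0.13) and the prolyl hydroxylase Egln2 0.12 (SE 0.13), with a median of -0.01. Of 12 genes known to respond to low oxygen, as Vegfa does, the demethylase Kdm3a gave -0.31 (SE 0.49) and Ndrg1 -0.27 (SE 0.26), with a median of -0.06. Both turned positive without replicate 2, at 0.34 and 0.068. Of 8 inhibitors of angiogenesis, Cnmd, an inhibitor made by cartilage, gave 0.19 (SE 0.13) and the matrix protein Thbs1 -0.17 (SE 0.12), with a median of 0.05.

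Between replicate numbers, 12 of these 47 genes passed the limma F test, against 9.85% of all genes at 1 probe each, and they were named after their values were seen. Ptprb, the endothelial phosphatase that acts on Tek, had replicate means of 9.08, 5.91, 4.67 and 5.24 (adjusted p-value 0.00356), highest in replicate 1 like Tek itself. The ligand gene Vegfd, at 13.92, 13.18, 12.52 and 12.67, was also highest there (adjusted p-value 0.088), while the semaphorin gene Sema3f was highest in replicate 4. Of the 4 inhibitors that passed, Col18a1, Adamts1 and Tnmd were highest in replicate 1, and Cnmd was lowest there at 7.46 against 14.40, 15.25 and 13.19 (adjusted p-value 0.000508). Of the oxygen-responsive genes, Adm, a vasodilator peptide, was highest in replicate 1 (14.42 against 13.05 to 14.00, adjusted p-value 0.027). Bnip3, Car9 and Ndrg1 passed with other patterns, and Car9 and Ndrg1 were lowest in replicate 1, where Vegfa was highest. None of the 7 oxygen-sensing genes passed, and Gipc1 was the only relay gene that did.

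Of 37 tested markers of cell types that a calvarial digest may hold, 13 passed the F test between replicate numbers, against 9.85% of all genes. Of 16 endothelial markers, 12 were tested, while Emcn, Icam2 and Sox17 were well above background on 0 arrays and Cldn5 on 1. Pecam1, Cdh5 and Vwf were so on all 8, as were Egfl7, Erg, Robo4, Sox18, Mmrn2 and Eng, and Esam, Ecscr and Plvap were so on 7. Pecam1 had log2 signals of only 4.02 to 4.90, and the brightest were Vwf (12.69 to 14.04) and Erg (11.69 to 13.10). Among the 4 that passed the F test, Plvap (6.41, 4.98, 4.32 and 4.25) and Eng were highest in replicate 1 and Erg and Vwf were not. The mean log2 signal of the tested endothelial list differed from its average by 0.17, 0.15, -0.19 and -0.13 in replicates 1 to 4. That of the 4 receptors differed by 1.36, 0.15, -0.61 and -0.90, and that of the 5 factors by 0.43, 0.04, -0.22 and -0.24. The receptor mean holds the brightest Flt1 probe, whose replicate means were 7.90, 5.54, 5.04 and 3.95. The last of these includes an array not well above background. The endothelial genes' summed signal ran from 12954 to 20524 in non-irradiated and from 12152 to 26988 in irradiated arrays, in the units of the scanner's processed signal after normalization. Vwf and Erg, the brightest of them, weigh most in this sum.

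The chondrocyte list, of which 2 of 4 passed, had a mean of -1.62 in replicate 1, where the receptors were high, and 0.45, 0.99 and 0.17 in replicates 2 to 4. Col2a1, the main collagen of cartilage, gave 10.04, 14.98, 15.85 and 15.09 (adjusted p-value 0.00236), and Acan, the main cartilage proteoglycan, was lowest in replicate 1 too. The summed signal of the 4 tested chondrocyte genes ran from 3090 to 60968 in non-irradiated and from 2701 to 63655 in irradiated arrays. The osteoblast list had its highest mean in replicate 1 (0.48) and its lowest in replicate 4 (-0.44), and 5 of 11 passed the F test: Alpl, Bglap, Dmp1 and Postn, highest in replicate 1, and Ibsp, highest in replicate 3. Col1a1, Col1a2, Sparc and Spp1 had their highest means in replicate 4 without passing. Runx2, Sp7 and Col1a1 were well above background on all 8 arrays, Sp7 at log2 signals of only 4.71 to 5.55. Summed signals of the osteoblast list were 680089 to 757076 in non-irradiated and 548082 to 739379 in irradiated arrays, both highest in replicate 4. The leukocyte list had its highest mean in replicate 1 (0.59), with 1 of 5 passing, Lyz2. Cd68, Itgam, Cd14, Aif1 and Lyz2 were well above background on all 8 arrays, Adgre1 on 6 and Csf1r on 5. Ptprc was so on 1 array and Cd163 and Mrc1 on 0. The summed signal of the 5 tested leukocyte genes ran from 1415 to 1587 in non-irradiated and from 1158 to 1780 in irradiated arrays. The mural list mean was 0.24 in replicate 1 and 1 of 5 passed, Mcam, with summed signals from 27688 to 37024 in non-irradiated and from 24488 to 34702 in irradiated arrays. None of the 37 tested marker genes passed for irradiation, at an adjusted p-value below 0.1 or an unadjusted one below 0.05 (limma). The part of these cell types in the replicate pattern was not tested.

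**Figure D4:**
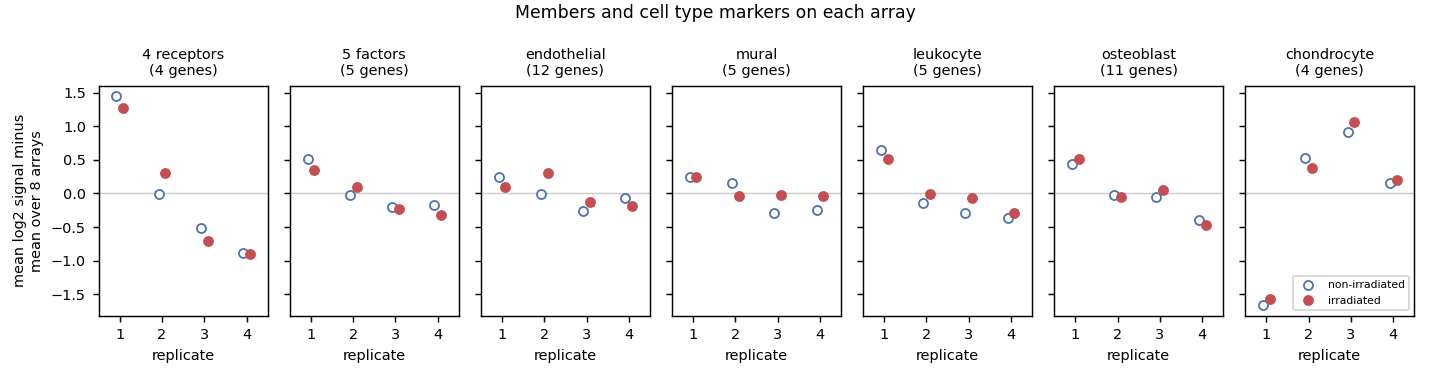
Mean log2 signal of each list on each array minus its mean over the 8 arrays (y axis) against replicate number (x axis), for the receptors, the factors and 5 lists of cell type markers, with open circles for non-irradiated and filled circles for irradiated arrays. In replicate 1 the receptors stand at 1.36 and the chondrocyte markers at -1.62 on average over the pair. The receptor mean includes the brightest Flt1 probe, which was not well above background on non-irradiated array 4. In pair 2 the irradiated array lies above the non-irradiated one for the receptors (0.31 against -0.00021) and the endothelial markers (0.31 against -0.0067). It does so too for the factors (0.091 against -0.017) and the leukocyte markers (-0.0083 against -0.14). It lies below for the mural (-0.039 against 0.16), osteoblast (-0.054 against -0.027) and chondrocyte markers (0.37 against 0.53).

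The median processed signal ran from 56.2 to 84.8, from 26543 to 30490 probes were well above background, and 0 spots were saturated. The number of arrays, 4 a group, limits the precision.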

How the data were processed

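Primary rat osteoblast-like cells were measured on 8 Agilent one-color arrays, all on 1 slide. The authors deposited the processed signal intensity of each spot, extracted with Feature Extraction 11.0.1.1 per the labels, which subtracts background on each array separately. A table of quantile-normalized log2 values that the authors deposited too served as an alternative. Processed signals were log2-transformed and quantile normalized over 58717 rat spots, outlying spots were left out, and spots of a probe were averaged. Of 45598 probes, 26404 were well above background in over 50% of their spots on all 4 arrays of a group, and 26400 could be fitted. The test was limma 3.58.1 (lmFit, eBayes; R 4.3.3), two-sided, in a model of irradiation and replicate number (a fixed block). P-values were adjusted over all probes by Benjamini-Hochberg, and a call was an adjusted p-value below 0.1. A moderated F test over the replicate terms compared replicate numbers, which could be done for 26373 probes. For each gene, the probe with the highest mean signal stood for it, and other probes were kept apart.

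The block was used because scanner file names give both arrays of a number the same animal number. Deviations from the group means correlated within numbers 1 to 4 at 0.608, 0.0542, 0.571 and 0.749 across probes, which are not independent replicates, and for number 2 an array of another number reached 0.303. The members, gene lists and tests were chosen with earlier results of these data known. All members were named, and of each list the 2 genes with the largest absolute difference, plus any past an unadjusted p-value of 0.05. Probe positions are those of the array's design (rn4), and promoters are RefSeq's (GRCr8). The fits were tested on simulated data. Results were recomputed with arrays scaled to their 75th percentile, with normexp (offset 50), and with the deposited log2 values, other filters and replicate terms, trend and robust estimation, averaged probes, and each pair left out.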

Additional observations from a re-analysis of the deposited data

Results flagged for a closer look

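Of 62 groups of 4 arrays examined, 6 (9.68%) held an array whose gap to the nearest of the others passed Dixon's critical value, and chance flags about 5% of such groups. The probes of a gene and the arrays of a pair are not independent. At the brighter Vegfa probe, irradiated replicate 1 gave a log2 signal of 12.19 against 10.76 to 10.91 in the other irradiated arrays. At the other tested Vegfa probe, non-irradiated replicate 1 gave 9.76 against 8.62 to 8.80, and irradiated replicate 1 gave 9.90 against 8.55 to 8.77. At the dimmer Vegfb probe, irradiated replicate 2 gave 5.33 against 5.82 to 5.90. Car9 was 7.17 in non-irradiated replicate 1 against 8.46 to 8.69, and Ndrg1 was 4.86 there against 6.87 to 7.23.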

How the results depend on the processing

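For irradiation, 0 probes, 0 members and 0 pathway genes had an adjusted p-value below 0.1 (limma) in each alternative run, the lowest adjusted p-value over all probes being 0.212 with a random replicate block. The number of member probes with an unadjusted p-value below 0.05, which was 1, was 0 with no replicate block, with a random block, with scaling to the 75th percentile, with the deposited log2 values, with trend and robust estimation and with probes of a gene averaged, 2 with no filter on dim probes (adding the long Flt1 variant), and 0 to 4 when each replicate pair was left out in turn, with 4 without replicate 2 (both Nrp1 probes, Tek and an Angpt1 probe). Over all probes the count at that p-value, 670, became 246 with no replicate block, 253 with normexp, 292 with the deposited values, 359 with trend and robust estimation, 1658 with no filter and 392 to 1411 on leaving out a pair. Of those probes 55.8% were higher in irradiated cells, and 72.6% with scaling to the 75th percentile. The difference of Flt1, -0.04, became 0.094 with that scaling, 0.13 with averaged probes, 0.019 and 0.41 at its other probes, and -0.26 to 0.13 on leaving out a pair. Leaving out a pair gave -0.12 to 0.13 for Vegfc and -0.049 to 0.093 for Vegfa, with no change of sign for Kdr (0.089 to 0.49), Tek (-0.35 to -0.050), Nrp1 (-0.39 to -0.070), Angpt1 (-0.23 to -0.050), Vegfb (-0.20 to -0.023) and Pgf (-0.10 to -0.019). The 2422 probes that differed between replicate numbers became 3675 with the deposited values, 618 with no filter and 148 to 9628 on leaving out a pair, and the 6 members became 2 with no filter, 1 to 8 on leaving out a pair, and 8, with Vegfc and Nrp1 added, with scaling to the 75th percentile, normexp, the deposited values, trend and robust estimation or averaged probes. The cause of these changes was not tested. Dim probes such as those of Angpt2 and the long Flt1 variant have only a bound.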
